A study of Homo sapiens with 6 samples.

Results

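Hemoglobin is built from alpha-like and beta-like chains, and the human genome holds a cluster of genes for each kind. The genes examined here are the 10 globin genes HBE1, HBG1, HBG2, HBD and HBB of the beta-like cluster on chromosome 11 and HBZ, HBM, HBA1, HBA2 and HBQ1 of the alpha-like cluster on chromosome 16. They were taken by gene symbol, 10 of the 31142 gene entries in the table, and each symbol had 1 identifier. The members were chosen by their measured levels in these 6 libraries, seen in earlier work on them, and by the globin family they belong to, so the levels, their order and the shares they make are given as a description, without a test.

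RNA was sequenced from 6 libraries labelled as SKM-1, a human acute myeloid leukemia cell line that arose from a myelodysplastic syndrome, with bone marrow as the source. A group of 3 libraries was labelled S34F mutant U2AF1 and another of 3 was labelled wild type (WT), and all were taken at 96 h. Per the methods, FLAG-tagged wild-type or mutant U2AF1 was brought into the cells by a lentiviral vector with a ubiquitin promoter, a GFP reporter and a puromycin marker, so transduced cells kept their own U2AF1, a splicing factor that reads the 3′ splice site. The Results of the study describe the sequencing as a comparison of cells that express the wild-type form with cells that express the mutant form. The WT titles also carry the prefix that the study uses for negative controls, and the methods of the sequencing speak of a vehicle control. In the methods of the lentiviral infection, the negative controls are untransfected cells. From these descriptions, whether the WT libraries expressed the wild-type construct, were vehicle controls or were untransfected cells cannot be told apart. If untransfected, they would also differ from S34F by the vector, its GFP reporter and its puromycin marker. The labels do not say that replicates were separate cultures, and p-values then measure the spread between these samples, which may be technical. Values are FPKM, fragments scaled to transcript length and to the mapped fragments of the library, as deposited. From the value of 1 fragment in single-exon genes, the depth was about 20.5 to 26.1 M fragments per library.

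Globin chains are switched during development. In the embryo, zeta chains (HBZ) pair with epsilon chains (HBE1); in the fetus, alpha chains (HBA1 and HBA2) pair with gamma chains (HBG1 and HBG2); after birth, beta chains (HBB) replace gamma, with a small part of delta (HBD). The order of the genes along each chromosome follows this order of use, and a locus control region upstream of each cluster drives the genes in erythroid cells. BCL11A and ZBTB7A are known repressors of the gamma genes in adult erythroid cells.

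The labelled cell type was checked against marker genes. Of 12 erythroid markers, 11 had a mean FPKM of at least 1, with ALAS2, the first enzyme of heme synthesis in erythroid cells, at 339 FPKM, and the list summed to 816 to 858 FPKM in S34F and 799 to 843 FPKM in WT. Of 12 monocytic and granulocytic markers, 4 had a mean of at least 1, and the list summed to 24.2 to 37.7 FPKM in S34F and 34.7 to 38.0 FPKM in WT. MPO, FCN1 and S100A8 averaged under 0.02 FPKM, whereas LYZ and SPI1 averaged 15.7 and 10.6 FPKM. SKM-1 is known as a myelomonocytic line, and in all 6 libraries these markers go against that label. The study also worked with K562, an erythroleukemia line. Its methods report that the cell lines were authenticated by short tandem repeat typing. The identity of the cells in these 6 libraries was not tested here.

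The embryonic HBE1 was the most abundant of the 10 genes. It had 5834, 5684 and 5058 FPKM in S34F replicates 1, 2 and 3 and 5313, 5226 and 5652 FPKM in WT replicates 1, 2 and 3, and its mean ranked 6 among all entries. The S34F libraries held both the highest and the lowest value, and the groups overlapped. The fetal HBG2 had 2450, 2324 and 1940 FPKM in S34F and 2178, 2230 and 1874 FPKM in WT, and the fetal HBG1 had 1920, 1965 and 1607 FPKM in S34F and 1729, 1821 and 1627 FPKM in WT. Both gamma genes were lowest in the third replicate of each group. HBG2 was above HBG1 in 6 of 6 libraries, with 53.5% to 56.1% of their summed FPKM, although the ranges of the genes across libraries overlapped.

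The adult beta-like genes were far lower. HBD, the minor adult chain, had 34.4, 34.3 and 24.2 FPKM in S34F and 17.8, 29.1 and 23.7 FPKM in WT. The first 2 S34F libraries were above every WT library, and the third lay within the WT range. HBB, the major adult chain, had 1.21, 1.19 and 0.823 FPKM in S34F and 0.940, 0.522 and 0.369 FPKM in WT. Depending on the transcript, these values stand for about 2.91 to 20.9 fragments of HBB in a library, which limits their precision by counting alone. HBD exceeded HBB in 6 of 6 libraries, by a ratio of 28.5 to 29.4 in S34F and of 18.9 to 64.2 in WT. Thus the entry of the minor adult gene stood above that of the major one in all these libraries. HBD and HBB together made 0.202% to 0.355% of the beta-like FPKM. The HBD entry spans 5232678 to 5243657 on chromosome 11, across the pseudogene HBBP1 (10.8 FPKM on average). How much of the HBD value came from that stretch was not tested.

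Among the alpha-like genes, the embryonic HBZ was the highest in every library. Its values were 1197, 1194 and 1439 FPKM in S34F and 1211, 1147 and 669 FPKM in WT. The third replicates lay on opposite sides, the S34F one above and the WT one below all the others, while the remaining 4 libraries ran from 1147 to 1211 FPKM. The alpha genes HBA1 and HBA2 encode the same chain, which is used in the fetus and after birth. HBA1 had 957, 1015 and 728 FPKM in S34F and 946, 863 and 638 FPKM in WT, and HBA2 had 827, 909 and 680 FPKM in S34F and 803, 819 and 546 FPKM in WT. Both again had their lowest value in the third replicate of each group. HBA2 made 45.9% to 48.7% of the alpha pair, and HBA1 was above HBA2 in 6 of 6 libraries.

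HBQ1 encodes theta globin, a chain of unclear use. It had 44.3, 32.9 and 18.6 FPKM in S34F and 35.8, 32.3 and 31.5 FPKM in WT, so the S34F libraries were spread on either side of a narrow WT range. HBM encodes mu globin, and its entry had 0.231, 0.0218 and 0.271 FPKM in S34F and 0.184, 0.0837 and 0.0443 FPKM in WT. That is at most about 3.97 fragments in a library, near the limit of detection, so its place in the order of levels rests on few fragments. The HBM entry spans 153892 to 166768 on chromosome 16, over the end of HBZ and over the zeta pseudogene HBZP1 (555 FPKM on average). Of the 100-base windows of its transcript HBM-203, 21.5% occurred in a transcript of HBZP1. How many of the HBM fragments came from such shared stretches was not tested. The deposited entry of HBM lists 2 transcripts of 592 bases, both non-coding in GENCODE 29, of the 3 that GENCODE 29 gives, and its coding transcript is not among them. For HBM, 3 fragments would be 0.248 FPKM in the shallowest library.

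From high to low the mean levels ran HBE1, HBG2, HBG1, HBZ, HBA1, HBA2, HBQ1, HBD, HBB and HBM. In this order HBG2 and HBG1, HBZ and HBA1, HBA1 and HBA2, and HBQ1 and HBD had ranges that overlapped across libraries, and the other neighbours did not. The first 6 kept their order in 6 of 6 libraries. HBQ1 was above HBD in 4 of 6 libraries. The widest steps were from HBA2 to HBQ1, where the ratio of means was 23.5, and from HBD to HBB, where it was 32.3. Across the 6 libraries the coefficient of variation was 5.58% for HBE1, 8.40% for HBG1 and 10.2% for HBG2, against 22.2% for HBZ, 17.1% for HBA1 and 17.0% for HBA2.

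RefSeq promoter sequences (GRCh38.p14) were at hand for 2 members, HBD and HBM, and these are shown. Each is the 250 bases before the transcript start, 5′ to 3′ on the strand of the gene, at chr11:5234484-5234733 on the minus strand for HBD and chr16:165728-165977 on the plus strand for HBM. Capitals mark matches to the box CCAAT, to the box CACCC, to the core motif GATAA and to the elements TATAA and ATAAAA, each searched on both strands, so that TTATC stands for the core motif on the other strand and GGGTG for the second box. A stretch can match both elements where they overlap.
HBD: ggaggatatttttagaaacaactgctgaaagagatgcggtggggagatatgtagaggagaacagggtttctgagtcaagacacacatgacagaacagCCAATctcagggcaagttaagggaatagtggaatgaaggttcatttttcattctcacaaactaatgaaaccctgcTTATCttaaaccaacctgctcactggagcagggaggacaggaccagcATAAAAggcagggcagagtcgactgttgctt
HBM: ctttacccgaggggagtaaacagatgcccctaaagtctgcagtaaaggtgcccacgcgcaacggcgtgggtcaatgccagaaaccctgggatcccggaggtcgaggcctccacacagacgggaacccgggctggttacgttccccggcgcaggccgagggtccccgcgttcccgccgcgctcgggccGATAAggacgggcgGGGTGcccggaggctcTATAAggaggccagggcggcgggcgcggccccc
In HBD, counted back from the transcript start, CCAAT began at -153, GATAA on the other strand at -78 and ATAAAA at -31, with no CACCC and no TATAA in the window. In HBM, GATAA began at -63, CACCC on the other strand at -49 and TATAA at -33, with no CCAAT and no ATAAAA. Over windows of the same table for 34943 promoters, 32.0% held CCAAT, 54.7% CACCC, 20.5% GATAA, 19.0% TATAA and 14.9% ATAAAA. These matches describe letters, and binding was not measured. The HBM window belongs to the coding transcript that the deposited entry does not list.

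Reads of the gamma, alpha and zeta genes can be shared with near-identical copies. In GENCODE 29 (GRCh38), HBG1 spans 5248079 to 5249859 on chromosome 11, and the entry AC104389.5 (ENSG00000284931) spans 5248270 to 5254783 on the same strand, over HBG1 and the gene body of HBG2. Of the 100-base windows of its transcript, 100% occurred in a transcript of HBG1 or HBG2. AC104389.5 had 2743, 2830 and 2141 FPKM in S34F and 2486, 2638 and 2171 FPKM in WT, as much as a gamma gene itself. The zeta pseudogene HBZP1, at 163122 to 165156 on chromosome 16, shared 78.2% of its 100-base windows with HBZ. HBZP1 had 611, 606 and 701 FPKM in S34F and 521, 565 and 324 FPKM in WT, with every S34F library above every WT library. Such a separation, in either direction, was seen for 7.38% of all genes that averaged 1 FPKM or more. HBA1 shared 79.7% of its windows with HBA2, and HBG2 shared 51.5% with HBG1, so how the fragments were split between these copies is uncertain. HBB shared 0 of 529 such windows with HBD, and HBE1 shared 0 of 517 with HBG2. The identifiers of HBE1 and HBG2 also include transcripts that run to 5505652 and 5505605, across the olfactory receptor genes OR51B4 and OR51B5 (19.3 and 14.6 FPKM on average).

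These entries set which beta-like class was the larger. With the members alone, HBE1 made 57.0%, 56.8% and 58.6% of the beta-like FPKM in S34F and 57.5%, 56.2% and 61.6% in WT, and HBE1 was 1.29 to 1.61 times the summed gamma genes. With AC104389.5 counted as gamma, an alternative chosen after the data were seen, HBE1 made 44.9%, 44.3% and 47.0% in S34F and 45.3%, 43.8% and 49.8% in WT, and the ratio to gamma was 0.781 to 0.996. HBE1 therefore stood above gamma in 6 of 6 libraries by the first count and below it in 6 of 6 by the second. By either count the adult genes made 0.355% of the beta-like FPKM at most. The S34F and WT shares overlapped in both counts.

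Zeta made 39.6%, 37.9% and 50.2% of the alpha-like FPKM in S34F and 40.4%, 40.1% and 35.5% in WT. Replicates 1 and 2 of both groups lay close together, and replicate 3 of S34F and of WT were the highest and the lowest. With HBZP1 counted as zeta, an alternative chosen after the data were seen, the shares were 49.7%, 47.9% and 60.0% in S34F and 49.2%, 49.97% and 44.96% in WT. The ratio of HBZ to HBA1 and HBA2 was 0.671, 0.621 and 1.02 in S34F and 0.692, 0.682 and 0.565 in WT. The mean zeta share was 3.89 percentage points higher in S34F than in WT with all libraries, and with replicate 3 of both groups left out the difference was -1.52 points.

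The beta-like FPKM summed to 10240, 10008 and 8630 in S34F and 9238, 9307 and 9177 in WT. The alpha-like FPKM summed to 3025, 3151 and 2866 in S34F and 2996, 2861 and 1884 in WT. With HBZP1 added, the alpha-like sums were 3636, 3758 and 3566 in S34F and 3517, 3426 and 2208 in WT, and the zeta sums were 1808, 1800 and 2139 in S34F and 1732, 1712 and 993 in WT. For both of these sums every S34F library was then above every WT library, as HBZP1 itself was. With the members alone this was not so. Both sums contain HBZP1, so they are no separate observations from it. Groups did not overlap for 7.38% of all genes that averaged 1 FPKM or more. The ratio of the beta-like to the alpha-like members was 3.39, 3.18 and 3.01 in S34F and 3.08, 3.25 and 4.87 in WT, so the third WT library stood apart in its low alpha-like sum, while its beta-like sum was like that of the other WT libraries. Together the 10 genes made 3.13% to 3.88% of the summed FPKM of a library. Their sum was 12640 ± 993 (SD, n = 3) in S34F and 11821 ± 659 (SD, n = 3) in WT, a log2 ratio of 0.10, and the groups overlapped. In bulk RNA, fewer cells that express a gene and less RNA per cell cannot be told apart.

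**Figure D1:**
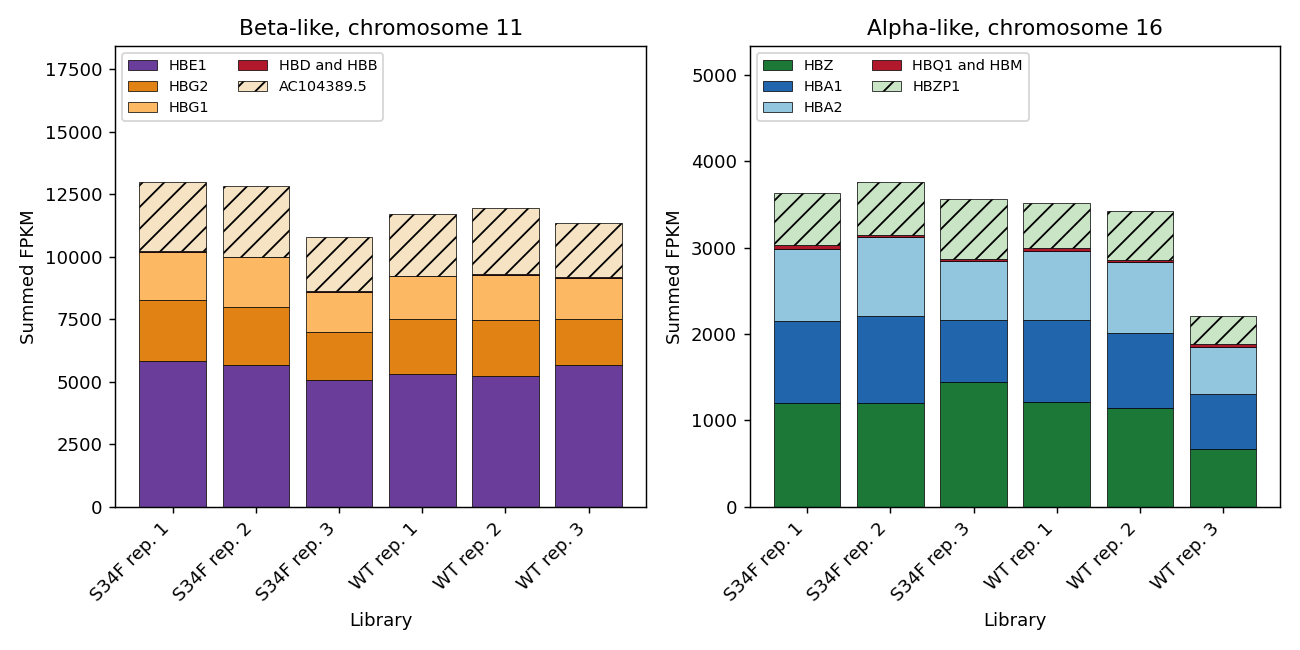
Summed FPKM of the beta-like genes (left) and the alpha-like genes (right) in each library, stacked by gene, with the overlapping entries AC104389.5 and HBZP1 hatched on top. HBE1 and the gamma genes fill nearly all of the left bars, and the alpha-like members of WT replicate 3 sum to 1884 FPKM against 2861 to 3151 in the other libraries.

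The comparison of S34F with WT asks whether mutant U2AF1 came with other globin levels. It was fitted by limma on log2(FPKM + 1) over 10942 genes, those that averaged 1 FPKM or more, a filter that 8 of the 10 members passed and HBB and HBM did not. With a fold change above 1.5 on this scale and an unadjusted p under 0.05, 0 of the 8 globin genes passed, against 0.585% of all genes tested (23 higher, 0.210%, and 41 lower, 0.375%). At an unadjusted p under 0.05 alone, 0 of the 8 passed, against 2.39% of all genes, and with Benjamini-Hochberg adjustment 0 of the 8 and 0 of all genes had an adjusted p under 0.05. In 0 of the 8 were the groups without overlap, which was so for 7.38% of all genes. The log2 fold change was above 0 in 7 of the 8, with a median of 0.12, against 54.6% of all genes and a median of 0.01. The smallest two-sided p that an exact permutation test of 3 against 3 libraries can give is 0.1.

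The 2 embryonic genes differed in how well the comparison was resolved. For HBE1 the log2 fold change was 0.03 (standard error 0.08, limma p = 0.710, adjusted p = 1.00, exact permutation p = 0.7), and its 95% interval allowed a fold from 0.892 to 1.17. For HBZ it was 0.38 (standard error 0.23, limma p = 0.143, adjusted p = 1.00, exact permutation p = 0.3), with an interval from 0.891-fold to 1.91-fold. The spread of HBZ lay in the third replicates. Without both, its log2 fold change was 0.02. That of HBE1 was then 0.13 with an unadjusted limma p under 0.05 (adjusted p = 0.212), a limit that 16.9% of all genes passed in that fit.

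The fetal genes moved little. HBG2 had a log2 fold change of 0.09 (standard error 0.12, limma p = 0.459, exact permutation p = 0.5) and HBG1 one of 0.08 (standard error 0.10, limma p = 0.461, exact permutation p = 0.5), with upper bounds of 1.30-fold and 1.26-fold. HBA1 and HBA2 had log2 fold changes of 0.15 and 0.17 (limma p = 0.458 and 0.397, exact permutation p = 0.5 for each), and without the third WT library both were -0.020. Under the same fit AC104389.5 had 0.07 (limma p = 0.593, exact permutation p = 0.6) and HBZP1 had 0.48 (standard error 0.21, limma p = 0.0579, adjusted p = 1.00, exact permutation p = 0.1).

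HBD had the highest estimate of the 8, a log2 fold change of 0.39 (standard error 0.21, limma p = 0.111, adjusted p = 1.00, exact permutation p = 0.2). It was 0.21 without the first WT library, and 0.31 without the first or the second S34F library. It was 0.56 without the third S34F library and 0.55 without the second WT library, with an unadjusted limma p under 0.05 in both fits and adjusted p = 0.424 and 1.00. The fold and p limits were passed by 180 of 10889 genes in the first fit and by 79 of 10925 in the second. HBD passed them in neither. HBQ1 had the only negative estimate, -0.13 (standard error 0.29, limma p = 0.658, exact permutation p = 0.9), and it was 0.20 without the third S34F library, so its sign rested on that library.

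HBB and HBM were tested only with a lower filter or none. With no filter, HBB had a log2 fold change of 0.38 (standard error 0.17, limma p = 0.0697, adjusted p = 0.999, exact permutation p = 0.2) and HBM one of 0.08 (standard error 0.10, limma p = 0.410, exact permutation p = 0.5). With the filter lowered to a mean of 0.1 FPKM, an alternative chosen after the data were seen, HBB had a log2 fold change of 0.38 (standard error 0.16, limma p = 0.0467, adjusted p = 1.00, exact permutation p = 0.2), when 3.12% of the 18329 genes then tested had an unadjusted p under 0.05. In S34F its level averaged 1.08 FPKM with an SD of 0.219, in WT it averaged 0.611 FPKM with an SD of 0.296, and the groups overlapped. The fold on the FPKM scale was 1.76, and the log2(FPKM + 1) scale understates it at this level.

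**Figure D2:**
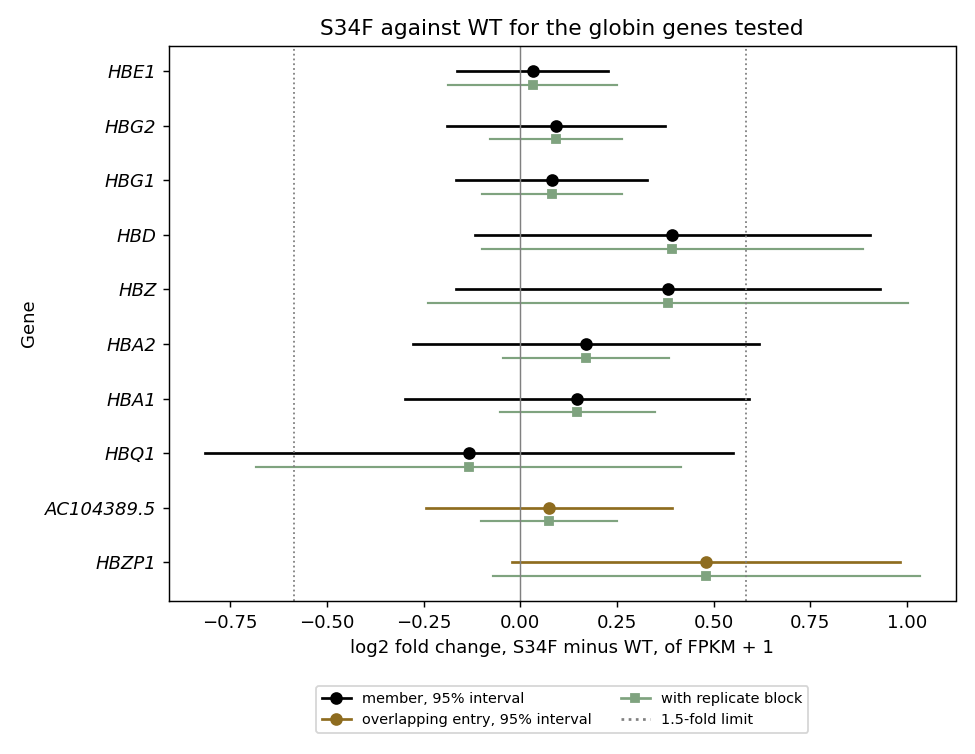
Log2 fold change of FPKM + 1, S34F minus WT, for the 8 globin genes tested (black) and the overlapping entries AC104389.5 and HBZP1 (brown), each with its 95% interval from limma, and below it in green the blocked fit, which pairs libraries by number. Every interval includes 0, the estimates of the members run from -0.13 for HBQ1 to 0.39 for HBD, and dotted lines stand at a 1.5-fold change.

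Across 10942 genes, the deviation of S34F replicate 3 from its group mean correlated at 0.380 with that of WT replicate 3. With WT replicates 1 and 2 it correlated at -0.273 and -0.205. Among the tested globin genes, replicate 3 deviated by differing amounts and in differing directions. In S34F, replicate 3 was the lowest library for 7 of the 8 tested members and the highest for HBZ. It differed from the mean of replicates 1 and 2 by -12.2% for HBE1, -18.7% for HBG2, -26.2% for HBA1 and -51.8% for HBQ1, and by 20.3% for HBZ. In WT, replicate 3 was the lowest for 6 of the 8, at -43.3% for HBZ, -32.7% for HBA2 and -15.0% for HBG2, and HBE1 and HBD were higher by 7.26% and 1.18%. In each group HBE1 and HBZ thus deviated in opposite directions in replicate 3, HBE1 down and HBZ up in S34F and the reverse in WT.

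By mean level, the 6 most abundant globin genes were above every listed neighbour of either cluster. The overlapping entry AC104389.5, at 2501 FPKM on average, is not among these neighbours. On chromosome 16, HBQ1 was below POLR3K, MPG and SNRNP25, and HBM was below every listed neighbour. On chromosome 11, HBD was above OR51B4 and OR51B5, and HBB was below OR51B4, OR51B5, HBBP1 and BGLT3. The 7 listed genes around the alpha cluster had mean levels from 1.45 FPKM (RHBDF1) to 40.7 FPKM (POLR3K), with NPRL3, whose introns hold the alpha regulatory elements, at 9.95 FPKM. Of the 7 listed olfactory receptor and ubiquilin genes around the beta cluster that are in the table, 5 had a mean under 1 FPKM. Inside the beta cluster, between the fetal and adult genes, the pseudogene HBBP1 had 15.1, 17.6 and 5.17 FPKM in S34F and 10.2, 11.1 and 5.77 FPKM in WT, and the non-coding BGLT3 averaged 2.84 FPKM. HBBP1 was lowest in the third replicate of each group. None of the 7 alpha neighbours, HBBP1, BGLT3, OR51B4 or OR51B5 passed the limits in S34F against WT. The globins outside the clusters were near 0, with myoglobin (MB) at 0.018 FPKM at most and cytoglobin (CYGB) at 0.487 FPKM on average.

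Of 39 listed regulators and partners of the globin genes, 36 passed the filter, and 0 were past the fold and p limits in either direction (0 at an unadjusted p under 0.05), against 0.585% of all genes. The erythroid activators GATA1 and KLF1 had 142 to 206 and 122 to 159 FPKM. BCL11A, the gamma repressor, was at or near 0, with 0.00574 FPKM at most, and SOX6, its partner, averaged 0.0633 FPKM. ZBTB7A, the other gamma repressor, had 3.68 to 4.09 FPKM. MYB, which favours proliferation of progenitors and low gamma levels, had 7.92, 8.67 and 4.64 FPKM in S34F and 9.85, 8.88 and 7.11 FPKM in WT. The fetal-stage RNA-binding proteins LIN28B and IGF2BP1 had 2.86 to 5.16 and 13.6 to 19.8 FPKM, and AHSP, which stabilizes free alpha chains, had 4.60 to 6.46 FPKM. Their log2 fold changes ran from -0.28 for MYB to 0.14 for AHSP (limma, adjusted p = 1.00 for each tested). KLF10, which binds GC-rich promoter elements, had the highest of the list, 0.51 (standard error 0.32, limma p = 0.160, exact permutation p = 0.4), with 9.47, 8.94 and 14.4 FPKM in S34F and 4.16, 7.95 and 10.97 FPKM in WT. It was 0.78 and past the fold and p limits without the third WT library (limma, adjusted p = 1.00). In that fit 85 of 10949 genes were past them. Without the first WT library the log2 fold change of KLF10 was 0.18.

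The genes whose levels followed each globin most closely over the 6 libraries were sought among 3574 other genes that averaged 10 FPKM or more, by Pearson's r of log2(FPKM + 1). They were REX1BD (r = 0.990), FASN (0.984) and RBM42 (0.978) for HBE1, FAM53C (0.999), DDX1 (0.984) and BAZ1B (0.979) for HBZ, and EBNA1BP2 (0.995), RFC5 (0.994) and FRAT2 (0.994) for the summed gamma genes. FAM53C, like HBZ, was highest in the third S34F library (29.9 FPKM) and lowest in the third WT library (5.45 FPKM). An r of at least 0.9 was reached by 86 genes for HBE1, 56 for HBZ and 323 for gamma. Over 6 points that include the third replicates, these values are a description.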

How the data were processed

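The authors deposited 1 table with FPKM for 31142 genes in 6 libraries, with no counts. The processing notes name StringTie and edgeR, and the aligner, build and annotation are not given in the sources used here. The table also holds the authors' fold changes, p-values and q-values, which were not used. The samples were grouped by their titles.

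The FPKM were used as deposited. limma (empirical Bayes with a mean-variance trend) compared S34F with WT on log2(FPKM + 1) over the genes that averaged 1 FPKM or more, and p-values were adjusted over all genes tested by the Benjamini-Hochberg method. A gene was past the limits with a fold change of over 1.5 and an unadjusted p of under 0.05. Exact permutation tests were two-sided. The script was tested on simulated data. Depth was read from the value of 1 fragment in single-exon genes of at least 0.5 kb, and limits of 3 fragments cover counting error only. Coordinates and transcripts came from GENCODE 29, which holds 31002 of the identifiers.

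Named were the 10 members, 8 regulators whatever their values and any regulator past the limits, listed neighbours of the loci, and the 3 genes most alike to HBE1, HBZ and gamma. KLF10, SOX6 and AC104389.5 were named after their values were seen. The members and lists were chosen with earlier results of these data known.

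The deviations of libraries from their group means correlated across genes at 0.212, 0.174 and 0.380 for the same replicate numbers 1, 2 and 3, against 0.197 for S34F 2 with WT 1 and 0.134 for S34F 1 with WT 2, so the pairing of replicates 1 and 2 is not specific. The main fit used no pairs. Since each matched value exceeded 0.1, a blocked fit that pairs same-numbered libraries (replicate block) served as an alternative. The other alternatives were 4 scalings, another pseudocount, other filters, no variance trend, each library left out, and replicate 3 of both groups left out. The tools were limma 3.58.1 in R 4.3.3, and scipy 1.17.1, pandas 2.3.3, matplotlib 3.10.9 and numpy 2.4.6 in Python 3.11.15.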

Additional observations from a re-analysis of the deposited data

How the results depend on the processing

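Of 144 alternative values of the log2 fold changes of the 8 globin genes tested, 134 kept their direction and their side of an unadjusted p of 0.05. The sign turned for HBE1 without S34F replicate 1, for HBA1 and HBA2 without WT replicate 3, and for HBQ1 without S34F replicate 3 and without replicate 3 of both groups (0.16). When 1 library was left out, the log2 fold changes ran from -0.0086 to 0.094 for HBE1, from -0.020 to 0.29 for HBA1, from -0.020 to 0.29 for HBA2, from -0.40 to 0.20 for HBQ1, from 0.11 to 0.54 for HBZ, from 0.21 to 0.56 for HBD, from 0.015 to 0.19 for HBG2 and from 0.027 to 0.17 for HBG1. HBE1 had 0.17 under quantile normalization. An unadjusted p under 0.05 came with HBE1 and HBG1 (log2 fold change 0.13 for both) without replicate 3 of both groups, with HBG1 (0.17) and HBD (0.56) without S34F replicate 3, and with HBD (0.55) without WT replicate 2. For the fits that left out 1 library, the share of all genes under this p was not computed. The causes were not tested. Under each of the 18 alternatives, 0 globin genes passed the fold and p limits together, and 0 had an adjusted p under 0.05. In the main fit with no fold limit, 0 globin genes had an unadjusted limma p under 0.05.

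The count of all genes past the limits, 64, became 122 with a pseudocount of 0.1, 12 of the 3582 genes that averaged 10 FPKM or more, 186 without replicate 3 of both groups and 262 with no fold limit, and it ran from 67 to 180 when 1 library was left out. The count of regulators past the limits ran from 0 to 1 when 1 library was left out. With the replicate block the count over all genes was 87, and 0 globin genes and 0 regulators passed the limits, so the pairing changed no call; the unadjusted p of KLF10 was 0.0428 with the block. The zeta share, 3.89 percentage points higher in S34F, was -1.52 without replicate 3 of both groups and ran from 0.06 to 6.22 when 1 library was left out. The difference in the beta-like over alpha-like ratio ran from -0.87 to 0.02, and the log2 ratio of summed globin FPKM from 0.05 to 0.16. No scaling moved the median of all genes by over 0.1. HBB and HBM rested on about 20.9 and 3.97 fragments per library at most. The unadjusted p of HBB was 0.0467 with a filter of 0.1 FPKM and 0.0697 with none.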
